A study of Homo sapiens with 6 samples.

Results

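The comparison set T98G cells given an SRPK1 expression vector against T98G cells given a short hairpin against SRPK1, and covered all genes counted in 4 of the 6 libraries of the study. T98G is an established human glioblastoma line. In the group called oeSRPK1 (2 libraries), the full-length SRPK1 coding sequence, cloned from T98G cDNA into the pcDNA3.1 plasmid, was transfected with Lipofectamine 2000. In the group called shSRPK1 (2 libraries), a pLKO.1 plasmid carrying an SRPK1 hairpin was transfected in the same transient way. Untreated cells, called NT (2 libraries), received no plasmid, and they entered here through the shared estimate of spread and as a reference level. The labels give 2 biological replicates of each condition. Every group was cultured in DMEM with fetal bovine serum, and polyadenylated RNA was sequenced. The 2 plasmids differ in backbone and in what they express, and no library of an empty vector or a control hairpin was analysed here. SRPK1 dose, plasmid and any other target of the hairpin therefore cannot be told apart in any difference below.

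SRPK1 is a kinase that phosphorylates the arginine- and serine-rich domains of SR proteins, a family of splicing factors. Phosphorylation brings SR proteins into the nucleus and to sites of splicing, and it is balanced there by the CLK kinases. SRPK1 is known in cancer for setting the splicing of VEGFA and for signalling downstream of the EGF receptor. Gene counts measure how much RNA a gene has and do not show its splice forms.

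Reads assigned to genes ranged from 3891549 in oeSRPK1 replicate 2 to 22691215 in oeSRPK1 replicate 1. Levels are given below as normalised CPM, the reads of a gene per 1000000 gene reads of its library, adjusted with TMM scaling factors; the summed level of a list is not so adjusted. VIM and CD44, expressed by T98G and other mesenchymal cells, were high in all 6 libraries, whereas SOX2, S100B, FABP7 and AQP4 had 0 reads in every library and GFAP had 1 read in all. The shSRPK1 replicates lay further apart from each other (median absolute log2 difference 0.272 over genes) than the oeSRPK1 replicates (0.162). Both oeSRPK1 libraries held skeletal muscle transcripts, most of them in replicate 2. MYH7, a slow muscle myosin, had 0 reads in both NT libraries, 0 and 61 in the shSRPK1 libraries, and 2399 and 4905 in the oeSRPK1 libraries. The summed level of the 21 muscle markers found in the counts reached 643 and 4114 CPM in oeSRPK1. It was 327 and 373 CPM for untreated cells and 496 and 409.7 CPM for shSRPK1. All 15 tested markers had a positive log2 difference, with a median of 7.43, and 3 (RYR1, PYGM and TNNT1) were called higher. Among the 15, 7 had under 10 reads in every NT and shSRPK1 library, RYR1 and PYGM included. These 7 were tested only through the oeSRPK1 libraries. Over all tested genes, 81 had a level in oeSRPK1 replicate 2 at least 4 times that in replicate 1. The threshold was chosen after the values were seen. Of these, 4 were called higher (KLHL41, PYGM, RETREG1 and RYR1), and a gap of this size between replicates itself makes a call unlikely. The part of muscle RNA in other differences was not tested. Removing the muscle markers took out only their own rows, so the calls then (1698 higher and 1680 lower) cannot show it. PTPRC, HBB, ALB and CLDN5, which define leukocytes, red cells, liver and endothelium, had 0 reads in every library. The summed leukocyte and endothelial lists stayed between 2.71 and 8.81 CPM, and 1 gene of each was called higher (ITGAM and ROBO4).

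SRPK1 itself (chromosome 6, 35832966-35921342, GRCh38) had 113 and 140.1 CPM in the shSRPK1 libraries, 153 and 140.4 CPM in NT and 190.3 and 168 CPM in the oeSRPK1 libraries. Both oeSRPK1 libraries were above the other 4, and shSRPK1 replicate 2 was level with NT replicate 2, so the hairpin group stood clearly below untreated cells in replicate 1 alone. Against NT, the log2 difference was -0.21 ± 0.14 SE (adjusted p 0.36) in shSRPK1 and 0.29 ± 0.14 SE (adjusted p 0.175) in oeSRPK1, and these comparisons share the NT libraries. The difference was 1.42-fold (95% interval 1.13 to 1.78; log2 difference 0.50 ± 0.14 SE) with an adjusted p of 0.0377 in edgeR's quasi-likelihood test. The adjusted p was 0.308 without oeSRPK1 replicate 1, 0.0997 without oeSRPK1 replicate 2, and 0.0945 and 0.0939 without NT replicate 1 or 2. The direction was that of the labels. Counts do not separate endogenous SRPK1 transcripts from those of the plasmid. SRPK2, the closest relative of SRPK1, had 66.5 and 86.1 CPM in the shSRPK1 libraries and 68.2 and 67.5 CPM in the oeSRPK1 libraries, a fold of 0.89 with an interval of 0.71 to 1.12 that includes no change. SRPK2 was called lower without shSRPK1 replicate 1 (log2 difference -0.38, adjusted p 0.0115) and had a log2 difference of -0.01 without replicate 2.

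Of the 4 CLK kinases, which phosphorylate the same SR proteins inside the nucleus, CLK1, CLK2 and CLK3 were lower in oeSRPK1. CLK1 had 208 and 179.6 CPM in the shSRPK1 libraries and 114 and 119 CPM in the oeSRPK1 libraries, with 72.3 and 86.6 CPM in NT. The groups did not overlap, and both plasmid groups were above NT. CLK1 was 1.66-fold lower in oeSRPK1 (log2 difference -0.73 ± 0.13 SE, edgeR adjusted p 0.00953), CLK2 1.78-fold lower and CLK3 1.65-fold lower, while CLK4 was 1.35-fold lower with an adjusted p of 0.0639. PRPF4B, a kinase of the spliceosome, was 1.49-fold lower. Of the 15 tested kinases of the SRPK, CLK, DYRK and HIPK families, 3 were called higher (SRPK1, DYRK3 and HIPK3) and 4 lower. With either oeSRPK1 library left out, 0 of the 15 were called in edgeR.

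Over all genes, 14732 were tested. Of these, 1690 were higher in oeSRPK1 (11.5% of those tested) and 1671 lower (11.3%) at an adjusted p under 0.05, together 3361 (22.8%). All 3361 had groups that did not overlap, against 62.3% of all tested genes. The typical called change was moderate: the median log2 difference was 0.81 among genes called higher and -0.85 among those called lower, and 600 and 658 respectively differed at least 2-fold. The untreated mean lay between the groups for 1100 of the genes called higher and 1177 of those called lower. It lay below both groups for 456 and 172, and above both for 134 and 322. Calls depended strongly on single libraries. The fewest genes were called without oeSRPK1 replicate 1, the deepest library, and part of those then higher were not among the reported calls. The most were called without shSRPK1 replicate 2. Each of these fits leaves 1 library in a group, and its spread is then taken from the other groups. No gene was called in the opposite direction under any setting tried. Beside the counts below, the share of all tested genes called (11.5% higher, 11.3% lower) is the background, and the median log2 difference over all tested genes was -0.00197.

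**Figure D1:**
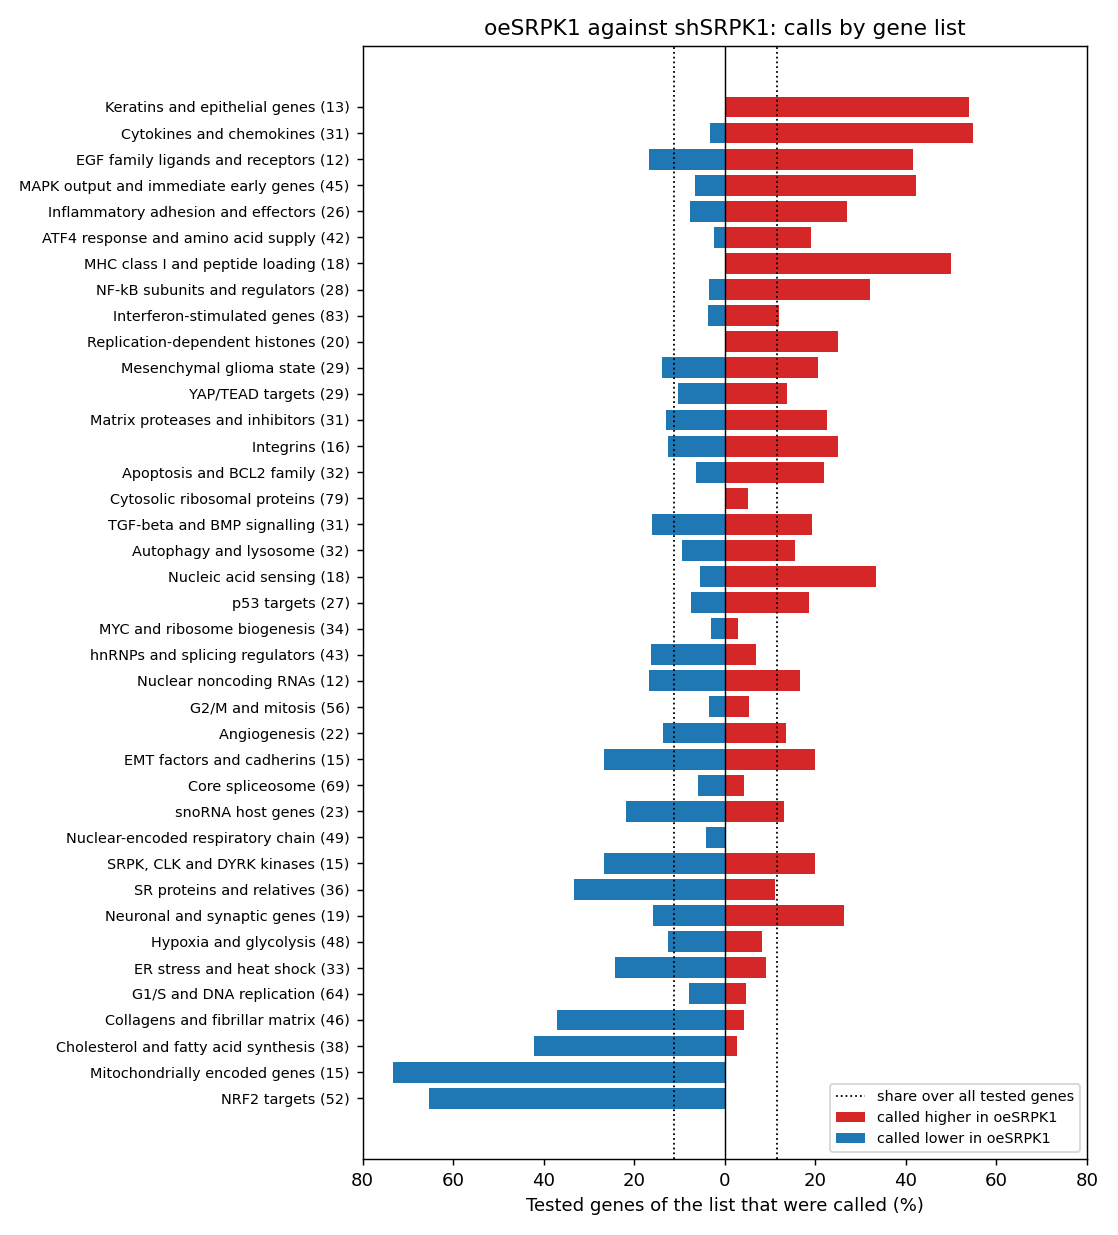
Share of the tested genes of each list (percent, horizontal axis) called higher (red, to the right) or lower (blue, to the left) in oeSRPK1 against shSRPK1, with the number tested after each name. Dotted lines mark the shares over all tested genes. Mitochondrially encoded genes (73.3%) and NRF2 targets (65.4%) extend furthest to the left. On the right, cytokines (54.8%) and keratins (53.8%) include 5 and 2 genes with under 10 reads in every NT and shSRPK1 library, so their bars are not comparable with the others.

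Rises and falls were ranked among called genes with a log2 CPM averaging 1 or more, and some called genes under that level had larger rises. Within this ranking, the 12 largest rises included 4 secreted immune signals and a keratin. They were the lincRNA AC034213.1, the ribosomal protein pseudogene RPLP0P2, IL1B, KRT7, IL1A, the neurotrophin receptor NGFR, the kinase scaffold AKAP12, the lincRNA AC003092.1, CSF2, the O-glycosylation enzyme GALNT12, CXCL11 and BEX2. NGFR had 0.831 and 0.669 CPM in the shSRPK1 libraries and 10.98 and 7.24 CPM in the oeSRPK1 libraries, and AKAP12 had 9.67 and 4.97 CPM in the shSRPK1 libraries and 88.7 and 70.8 CPM in the oeSRPK1 libraries. In both genes the oeSRPK1 libraries were far above the shSRPK1 and the NT libraries, with rises of 12.4-fold (7.07 to 21.6) and 10.8-fold (6.61 to 17.7). RPLP0P2 rose 15.3-fold, but it can share reads with its parent gene RPLP0, so its count is uncertain.

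The 12 largest falls in the same ranking were PI15, HSPA6, AKR1B10, ADGRG2, ALDH3A1, CBLN2, SLC47A2, SLC16A4-AS1, PPP1R32, LRP4, AKR1C2 and HMCN1. PI15, a secreted peptidase inhibitor, had 37.9 and 172 CPM in the shSRPK1 libraries and 2.83 and 5.17 CPM in the oeSRPK1 libraries. Its shSRPK1 replicates differed widely, so the log2 difference of -4.94 ± 0.97 SE (30.6-fold lower) is imprecise, and its edgeR adjusted p of 0.0296 became 0.121 without oeSRPK1 replicate 1. HSPA6, a stress-induced heat shock chaperone, had 39.4 and 21.7 CPM in the shSRPK1 libraries and 2.34 and 3.62 CPM in the oeSRPK1 libraries, against 2.91 and 3.04 CPM in NT. It was high in the shSRPK1 libraries only, and the oeSRPK1 libraries were at the untreated level. LRP4, a membrane receptor of the neuromuscular junction, was 7.23-fold lower, and SLC47A2, which exports organic cations, 7.54-fold lower. SLC16A4-AS1 is annotated antisense to SLC16A4, and since the counting is not stated to use strand, reads of the 2 genes may be mixed.

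Many cytokines, and some adaptors and inhibitors of the NF-kB system, were higher in oeSRPK1. NF-kB is a transcription factor held in the cytoplasm by inhibitors and freed by cytokine and danger signals, and it switches on cytokines, chemokines and its own inhibitors. Of 51 cytokines and chemokines listed, 31 passed the filter on low counts, 17 were called higher and 1 lower, with a median log2 difference of 1.78. Of these 31, 5 had under 10 reads in every NT and shSRPK1 library and passed through the oeSRPK1 libraries, so these had to differ in order to be tested, and 4 of the 17 called higher were among them. The other 20 were too low to test.

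Promoters of 2 of these genes are shown because each holds a match to the kappaB consensus, the site bound by NF-kB. The sequences are the 250 bases before a RefSeq start (GRCh38.p14, plus strand), with matches in capitals.
IL6, chr7:22726950-22727199: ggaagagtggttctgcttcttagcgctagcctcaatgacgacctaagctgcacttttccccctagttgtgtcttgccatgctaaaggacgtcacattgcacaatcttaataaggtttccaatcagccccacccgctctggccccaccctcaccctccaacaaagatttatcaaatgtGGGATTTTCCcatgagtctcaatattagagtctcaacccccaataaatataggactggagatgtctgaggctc
BIRC3, chr11:102317234-102317483: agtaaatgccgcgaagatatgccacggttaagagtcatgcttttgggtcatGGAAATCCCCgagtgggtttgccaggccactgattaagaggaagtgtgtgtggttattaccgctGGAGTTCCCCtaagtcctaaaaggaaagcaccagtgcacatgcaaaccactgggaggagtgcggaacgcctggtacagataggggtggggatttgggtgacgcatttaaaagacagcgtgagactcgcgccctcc
The IL6 match begins 73 bases before the start, and the first of 2 in BIRC3 begins 199 bases before it. In windows from 250 bases before to 50 after each start, searched on both strands, 5 of 12 cytokine genes called higher with a window held the consensus, as did 5 of 8 NF-kB genes called higher, against 7.11% of all genes with a window. An AP-1 site, TGANTCA, was found in 7 of the 12 cytokine genes and in 0 of the 8 NF-kB genes, against 9.40% of all genes. In the lists taken up below, it was found in 2 of 15 MAPK output genes called higher and 4 of 24 NRF2 targets called lower. Its letters can overlap the antioxidant element printed further on. Motifs, lists and printed promoters were chosen after the values were seen. A match is a stretch of letters and does not show binding.

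Among the ligands, IL1B and IL1A encode the paired interleukins that start local inflammation. IL1B had 1.36 and 2.30 CPM in the shSRPK1 libraries and 31.1 and 23.0 CPM in the oeSRPK1 libraries. IL1A had 1.74 and 2.104 CPM in the shSRPK1 libraries and 30.5 and 20.2 CPM in the oeSRPK1 libraries. The NT libraries were at 3.69 and 3.32 CPM for IL1B, slightly above shSRPK1, and at 2.52 and 2.82 CPM for IL1A. For both genes the oeSRPK1 libraries stood clear of all others. IL1B rose 15.3-fold (9.78 to 24.0) with an edgeR adjusted p of 0.00061, and IL1A 13.6-fold (8.80 to 20.9) with 0.00061. IL6, an acute-phase cytokine, had 37.7 and 48.1 CPM in the shSRPK1 libraries and 205 and 190.0 CPM in the oeSRPK1 libraries, a 4.62-fold rise (3.53 to 6.04) with an adjusted p of 0.000684. CSF2, the granulocyte and macrophage growth factor, had 3.55 and 1.72 CPM in the shSRPK1 libraries and 24.6 and 24.6 CPM in the oeSRPK1 libraries. CX3CL1, a membrane-bound chemokine, had 12.1 and 23.1 CPM in the shSRPK1 libraries and 109 and 118 CPM in the oeSRPK1 libraries, with 45.3 and 42.4 CPM in NT. The groups were apart in each of these 5 genes, and each stayed called with any one of the 6 libraries left out. The neutrophil chemokine CXCL8 (101 and 141 CPM in the shSRPK1 libraries and 523 and 419 CPM in the oeSRPK1 libraries) rose 3.91-fold and the IL6-family cytokine LIF 2.36-fold. Their adjusted p values without oeSRPK1 replicate 1 were 0.0599 and 0.0507. IL36B had 0 and 1 reads in the shSRPK1 libraries and 43 and 7 in the oeSRPK1 libraries, and no fold is given. CXCL12, a chemokine that attracts lymphocytes and stem cells, was the only member lower, with 57.9 and 83.4 CPM in the shSRPK1 libraries and 8.23 and 15.3 CPM in the oeSRPK1 libraries. It fell by a factor of 6.65 and also stayed called with any library left out. CXCL10 had 9.14 and 42.1 CPM in the shSRPK1 libraries and 35.5 and 32.6 CPM in the oeSRPK1 libraries, so its groups overlapped.

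Among receptor adaptors and regulators of NF-kB, TRAF1, which links TNF receptors to the pathway, had 5.14 and 5.45 CPM in the shSRPK1 libraries and 43.0 and 41.4 CPM in the oeSRPK1 libraries. BIRC3, a ubiquitin ligase of TNF receptor complexes, had 226 and 190.2 CPM in the shSRPK1 libraries and 1428 and 1209.5 CPM in the oeSRPK1 libraries, with 178 and 229 CPM in NT. In both genes shSRPK1 was close to NT and oeSRPK1 stood apart, by 7.98-fold (6.05 to 10.52, edgeR adjusted p 0.000311) and 6.34-fold (4.74 to 8.49, 0.000584). The inhibitors NFKBIA (1.35-fold), NFKBIE (1.56-fold) and TNIP1 (1.74-fold) rose less, as did NFKBIZ (1.75-fold), a relative of NFKBIA. The edgeR adjusted p values of NFKBIA and NFKBIZ were 0.0422 and 0.0303. Of the subunits, NFKB2 rose 1.63-fold, while RELA (1.19-fold, adjusted p 0.164), NFKB1 (1.25-fold, 0.338), RELB (1.74-fold, 0.0755) and REL (1.38-fold, 0.121) did not pass. MAP3K14, the kinase that starts the NFKB2 branch, fell by a factor of 1.58. In all, 9 of 28 members were called higher, 1 lower and 18 not called, with a median of 0.35. Without oeSRPK1 replicate 1, 2 of these genes and 5 of the cytokines were called higher, and without oeSRPK1 replicate 2, 3 and 10. Without NT replicate 2, 11 cytokines were called higher, and without shSRPK1 replicate 2, 16 NF-kB genes.

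**Figure D2:**
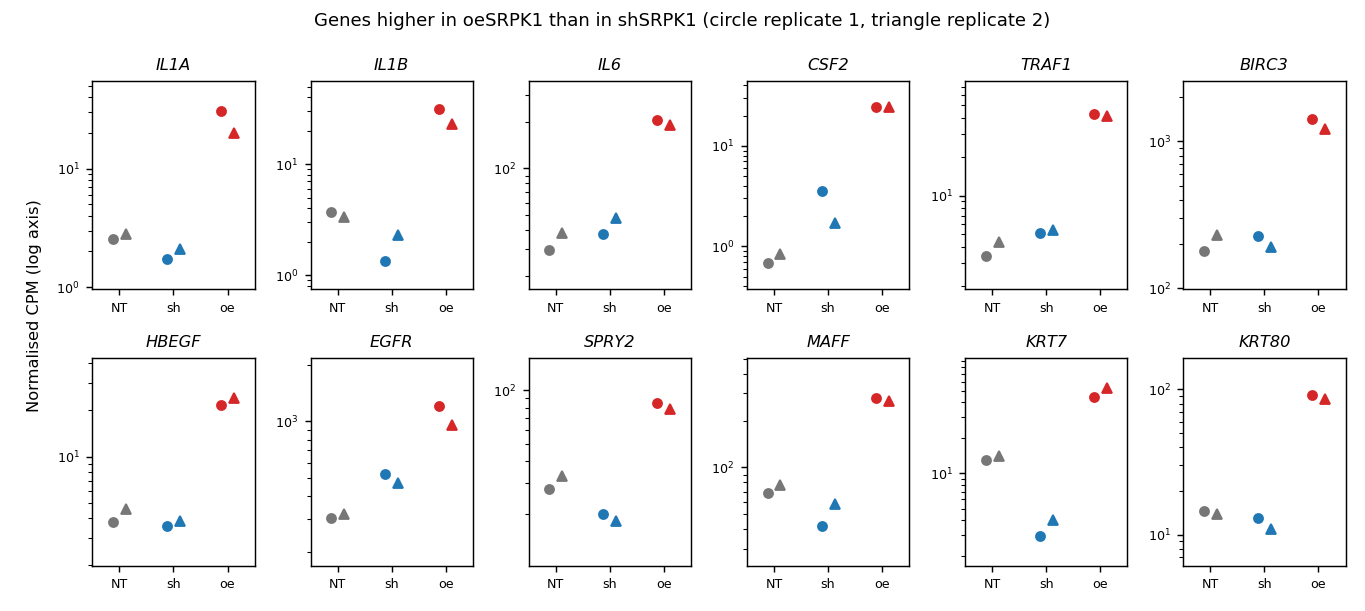
Normalised CPM (log axis) of 12 genes in NT (grey), shSRPK1 (blue) and oeSRPK1 (red), 1 point per library, circles for replicate 1 and triangles for replicate 2. In each gene both oeSRPK1 points lie above all 4 other points. The genes were chosen after their values were seen.

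Some genes of receptor tyrosine kinase signalling were higher and a few lower: in the EGF family 5 of 12 tested were called higher, 2 lower and 5 not called. EGF-family ligands bind the EGF receptor, which activates RAS and the MAPK cascade, and the cascade induces transcription factors together with its own brakes. HBEGF, a ligand, had 3.55 and 3.83 CPM in the shSRPK1 libraries and 21.5 and 24.0 CPM in the oeSRPK1 libraries, and TGFA, another, had 12.99 and 7.65 CPM in the shSRPK1 libraries and 76.1 and 50.7 CPM in the oeSRPK1 libraries. EGFR, the receptor, had 522 and 468 CPM in the shSRPK1 libraries and 1213 and 957 CPM in the oeSRPK1 libraries, with 304 and 318 CPM in NT. All 3 were higher in both oeSRPK1 libraries than elsewhere, by 6.13-fold (4.47 to 8.39), 6.18-fold (3.52 to 10.8) and 2.19-fold (1.71 to 2.81), while EGFR in shSRPK1 was also above NT. The ligand EGF fell by a factor of 2.90, and ERRFI1, an inhibitor of the EGF receptor, by 2.00. HBEGF stayed called with any library left out, and TGFA, EGFR, EGF and ERRFI1 had adjusted p values of 0.068, 0.076, 0.0888 and 0.0795 without oeSRPK1 replicate 1.

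Of 45 tested genes of MAPK output, 19 were called higher and 3 lower, with a median log2 difference of 0.59. SPRY2, which restrains RAS signalling, had 19.9 and 18.4 CPM in the shSRPK1 libraries and 84.7 and 78.8 CPM in the oeSRPK1 libraries, a rise of 4.28-fold (3.42 to 5.34). MAFF, a small MAF transcription factor, had 41.9 and 57.8 CPM in the shSRPK1 libraries and 281 and 267 CPM in the oeSRPK1 libraries. PLAU, the urokinase protease, had 139 and 252 CPM in the shSRPK1 libraries and 1376 and 1296 CPM in the oeSRPK1 libraries, with 406 and 399 CPM in NT. For PLAU the shSRPK1 libraries were below NT and the oeSRPK1 libraries above it, and the 2 plasmid groups differed 6.84-fold (4.45 to 10.503). EPHA2 (3.53-fold), the phosphatase DUSP6 (2.54-fold) and the cyclin CCND1 (2.36-fold) rose as well. EGR1, an immediate early transcription factor, moved the other way, with 16.8 and 16.3 CPM in the shSRPK1 libraries and 4.41 and 4.91 CPM in the oeSRPK1 libraries, and fell by a factor of 3.63. FOS and JUN did not pass (adjusted p 0.254 and 0.0856). SPRY2, MAFF, PLAU, EPHA2 and EGR1 stayed called with any library left out, and 4 genes of the list were called higher without oeSRPK1 replicate 1.

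Some keratins and other genes of epithelia rose in this glioma line. Keratins are the intermediate filaments of epithelial cells. KRT7 had 2.95 and 4.02 CPM in the shSRPK1 libraries and 44.6 and 52.99 CPM in the oeSRPK1 libraries, with 12.9 and 13.9 CPM in NT, and KRT80 had 13.1 and 10.998 CPM in the shSRPK1 libraries and 91.6 and 86.1 CPM in the oeSRPK1 libraries. KRT7 was lowest in shSRPK1, intermediate in NT and highest in oeSRPK1, and KRT80 was level in shSRPK1 and NT. They rose 14.01-fold (10.2 to 19.2) and 7.35-fold (5.87 to 9.19), each with an edgeR adjusted p of 0.000311. TFAP2C, a transcription factor of epithelial lineages, rose 4.81-fold, and KRT81, which can share reads with near-identical hair keratins, 4.31-fold. These 4 stayed called with any library left out. KRT8 (0.829-fold) and KRT18 (1.33-fold), the pair of simple epithelia, did not pass. In all, 7 of 13 tested genes were called higher and 0 lower at an adjusted p under 0.05 in edgeR. Of 24 listed, 11 were too low to test, and 2 of the 13, both called higher, had under 10 reads in each NT and shSRPK1 library. The summed epithelial and liver markers (EPCAM, CDH1, ALB and others) came to at most 1.10 CPM in any library. Fewer genes of the keratin list were called higher without oeSRPK1 replicate 1, and more without shSRPK1 replicate 1.

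Interferon-stimulated genes, induced by infection and by foreign nucleic acid, were above untreated cells in both plasmid groups. Their median log2 level over NT was 1.86 in shSRPK1 and 2.14 in oeSRPK1, comparisons that share the NT libraries. Between the plasmid groups 10 of 83 were called higher and 3 lower, with the share called higher close to the background and a median of 0.30. ISG15, a ubiquitin-like modifier, had 31.3 and 50.1 CPM in NT and 262 and 288 CPM in the shSRPK1 libraries and 597 and 667 CPM in the oeSRPK1 libraries, and rose 2.30-fold. IFIT1 had 201 and 476 CPM in the shSRPK1 libraries and 328 and 294 CPM in the oeSRPK1 libraries, with overlapping groups. MX1 had 311 and 517 CPM in the shSRPK1 libraries and 294 and 282 CPM in the oeSRPK1 libraries, with an adjusted p of 0.271. IRF9, a subunit of the factor that interferon activates, fell by a factor of 1.96. In IFIT1 and MX1 shSRPK1 replicate 2 was above replicate 1. The summed level of the list was 17951 and 24916 CPM in shSRPK1 and 26895 and 24436.5 CPM in oeSRPK1, so the groups overlapped. Calls in this list moved in both directions with the shSRPK1 library left out, and were lost without oeSRPK1 replicate 1. Of 18 genes of MHC class I and its peptide loading, 9 were called higher, 0 lower and 9 not called, with a median of 0.44. HLA-F rose 1.84-fold, HLA-E 1.59-fold, HLA-B 1.51-fold, the peptide trimmer ERAP1 1.84-fold and the peptide transporter TAP1 1.53-fold. CD74, a chaperone of class II that the list also held, rose 3.25-fold. HLA genes are near-identical and highly variable, so their counts are uncertain. Of the 18, 0 were called without oeSRPK1 replicate 1, and 4 without either NT library.

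Most tested targets of NRF2 were lower in oeSRPK1. NRF2, encoded by NFE2L2, is released from KEAP1 by oxidants and electrophiles and induces genes for glutathione synthesis, NADPH supply and detoxification. Of 52 tested targets, 34 were called lower and 0 higher (65.4% and 0%, beside 11.3% and 11.5% over all genes), with a median log2 difference of -1.31. The untreated mean was above both groups for 22 of the 34 and between them for 12. The summed level of the list came to 16252 and 18473 CPM in oeSRPK1, from 27264 and 41420.3 with the hairpin and 46168 and 44225 for untreated cells. Thus both oeSRPK1 libraries were below all 4 others, and shSRPK1 replicate 1 was below its partner.

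Promoters of 2 targets are printed because they hold the core of the antioxidant response element, TGACNNNGC, to which NRF2 binds with a small MAF protein. They are shown as above (GRCh38.p14, plus strand, 250 bases before a RefSeq start).
GSTP1, chr11:67583562-67583811: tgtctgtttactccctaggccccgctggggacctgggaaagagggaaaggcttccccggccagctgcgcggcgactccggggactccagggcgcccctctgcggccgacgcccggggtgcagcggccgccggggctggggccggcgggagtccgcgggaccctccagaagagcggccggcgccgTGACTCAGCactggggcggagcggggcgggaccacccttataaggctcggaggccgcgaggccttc
EPHX1, chr1:225825104-225825353: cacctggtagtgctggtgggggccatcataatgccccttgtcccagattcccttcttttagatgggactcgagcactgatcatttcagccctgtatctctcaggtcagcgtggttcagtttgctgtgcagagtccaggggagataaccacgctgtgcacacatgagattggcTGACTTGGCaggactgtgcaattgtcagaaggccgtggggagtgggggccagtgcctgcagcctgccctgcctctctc
The core begins 66 bases before the start in GSTP1, where its letters overlap an AP-1 site, and 78 bases before it in EPHX1. It was found on either strand in 6 of 24 targets called lower with a window, against 16.1% of all genes. The same core was found in 6 of 15 MAPK output genes called higher and in 3 of 12 cytokine genes called higher. No kappaB consensus was found in these 24.

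By role, the regulators did not pass: NFE2L2 had 395 and 573 CPM in the shSRPK1 libraries and 573 and 527 CPM in the oeSRPK1 libraries (1.14-fold, adjusted p 0.486), and KEAP1 had 55.5 and 53.3 CPM in the shSRPK1 libraries and 47.2 and 55.8 CPM in the oeSRPK1 libraries (0.938-fold, 0.626). Enzymes of the pentose phosphate pathway, which supplies NADPH, fell. TKT, its transketolase, had 987 and 998 CPM in the shSRPK1 libraries and 327 and 391 CPM in the oeSRPK1 libraries. The groups were well apart, with a fall by a factor of 2.77 (log2 difference -1.47 ± 0.14 SE). PGD and TALDO1 fell by 3.80 and 1.69, and TKT stayed called with any library left out. For glutathione, GCLC, the catalytic subunit of its synthesis, fell by a factor of 4.49, while its partner GCLM (129 and 352 CPM in the shSRPK1 libraries and 62.7 and 77.03 CPM in the oeSRPK1 libraries) had an adjusted p of 0.0517. GSTM2, a glutathione transferase, had 26.3 and 28.2 CPM in the shSRPK1 libraries and 5.67 and 6.20 CPM in the oeSRPK1 libraries and fell by a factor of 4.67 (adjusted p 0.000684). GSTP1 fell by 1.499 and the microsomal MGST1 by 2.37. SLC7A11, the cystine importer, had 551 and 1318 CPM in the shSRPK1 libraries and 905 and 828 CPM in the oeSRPK1 libraries and did not pass (adjusted p 0.858).

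The largest falls of the group were in aldehyde and ketone metabolism. ALDH3A1, an aldehyde dehydrogenase, had 41.3 and 88.1 CPM in the shSRPK1 libraries and 6.16 and 10.6 CPM in the oeSRPK1 libraries, with 93.0 and 93.1 CPM in NT. AKR1C2, a ketosteroid reductase, had 1432 and 2560.2 CPM in the shSRPK1 libraries and 216 and 347 CPM in the oeSRPK1 libraries, and AKR1B10 had 312 and 852 CPM in the shSRPK1 libraries and 34.3 and 84.3 CPM in the oeSRPK1 libraries. Each was lowest in both oeSRPK1 libraries, by factors of 8.57, 7.11 and 10.1, but the shSRPK1 replicates were spread about 2-fold or more in ALDH3A1 and AKR1B10. Their adjusted p values without oeSRPK1 replicate 1 were 0.0858, 0.0586 and 0.0973. The AKR1B and AKR1C genes and the GSTM genes are near-identical within each family and can share reads, so values of single members are uncertain. NQO1, a quinone reductase, had 2039 and 3200.3 CPM in the shSRPK1 libraries and 735 and 956 CPM in the oeSRPK1 libraries, a fall by a factor of 3.10, and EPHX1, an epoxide hydrolase, had 412 and 625 CPM in the shSRPK1 libraries and 133 and 168 CPM in the oeSRPK1 libraries, a fall by 3.47. The ferritin light chain FTL fell by a factor of 2.49, and HMOX1, the haem oxygenase, by 2.48. TXNRD1 (1.38-fold lower, adjusted p 0.157) and SQSTM1 (1.06-fold lower, 0.728) did not pass. Without oeSRPK1 replicate 1, 4 targets were called lower, and without any other single library between 24 and 43.

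**Figure D3:**
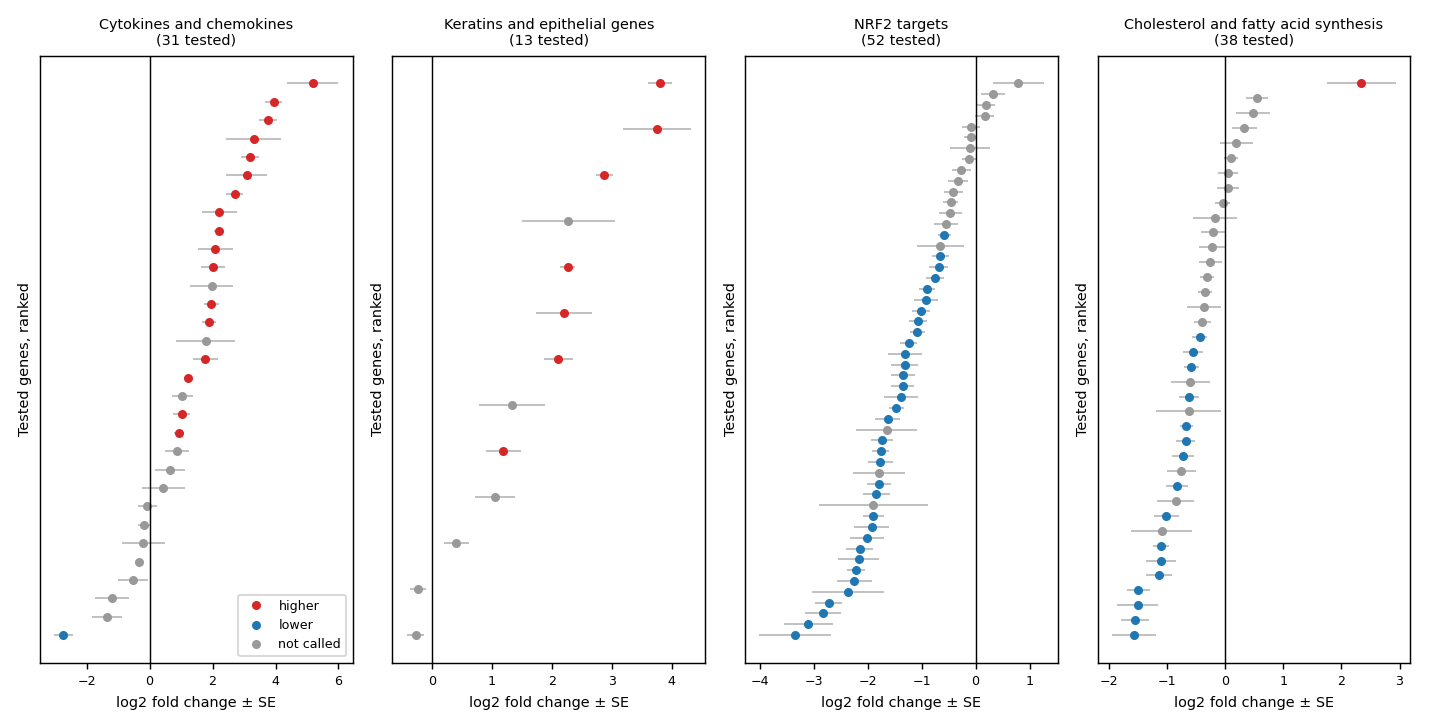
Log2 difference of oeSRPK1 over shSRPK1 (horizontal axis, bars are ± SE) for each tested gene of 4 lists, ranked within its list (vertical axis), with genes called higher in red, called lower in blue and not called in grey. Cytokines and keratins lie mostly to the right of 0 and NRF2 targets and sterol genes mostly to the left.

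Most protein-coding genes of the mitochondrial genome, which encodes core subunits of the respiratory chain, were lower in oeSRPK1. The list held 15 mitochondrially encoded genes, the protein-coding ones and 2 ribosomal RNAs. Of these 15, 11 were called lower and 0 higher, with a median of -0.91. Outside the list, 7 mitochondrial tRNA genes were tested, and 1 was called lower and 0 higher. MT-ND4, a subunit of complex I, had 9987 and 10136 CPM in the shSRPK1 libraries and 4635 and 4755 CPM in the oeSRPK1 libraries, with 7118 and 7109 CPM in NT. MT-CYB, of complex III, had 3078 and 2993 CPM in the shSRPK1 libraries and 1423 and 1610.0 CPM in the oeSRPK1 libraries. They fell by factors of 2.14 (edgeR adjusted p 0.00353) and 2.00 (0.00421), from shSRPK1 levels above NT to oeSRPK1 levels below it. MT-CO1 and MT-ATP6, of complex IV and the ATP synthase, fell by 1.93 and 1.94. The 2 ribosomal RNAs MT-RNR1 and MT-RNR2, and MT-ND1 and MT-ND6, did not pass. The summed level came to 28365 and 31379 CPM in oeSRPK1, from 49632 and 54037 with the hairpin and 49653 and 49900.3 for untreated cells. Of 49 nuclear respiratory chain genes, 2 were called lower (NDUFV1 and NDUFV2) and 0 higher, with a median of -0.12. More were called lower without shSRPK1 replicate 2, a fit that leaves 1 hairpin library and takes its spread from the other groups. The difference between the nuclear and the mitochondrial list was not tested. Mitochondrial genes have nuclear copies that can share reads, and 0 of the 15 were called without oeSRPK1 replicate 1 and 6 without replicate 2.

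Several genes of cholesterol and fatty acid synthesis were lower. SREBP factors, made by SREBF1 and SREBF2, are cut and enter the nucleus when sterols are scarce, and they induce the enzymes of the pathway. Of 38 tested, 16 were called lower, 1 higher and 21 not called, with a median of -0.57. The factor SREBF2 had 158 and 124 CPM in the shSRPK1 libraries and 65.5 and 66.4 CPM in the oeSRPK1 libraries, with 73.0 and 75.0 CPM in NT. The enzyme SCD, a fatty acid desaturase, had 756 and 440.1 CPM in the shSRPK1 libraries and 189 and 217 CPM in the oeSRPK1 libraries, with 184 and 199.9 CPM in NT. In both genes shSRPK1 was high and oeSRPK1 was close to the untreated level, and they were lower by factors of 2.15 and 2.95 (edgeR adjusted p 0.00313 and 0.00667). In the sterol branch MVD was 2.82-fold lower, HMGCS1 2.20-fold, DHCR7 2.85-fold and FDFT1 1.78-fold. ABCG1, which exports sterols and answers to sterol excess, was the member called higher, with 0.68 and 4.02 CPM in the shSRPK1 libraries and 11.4 and 11.4 CPM in the oeSRPK1 libraries. The list's median over NT was 0.52 in shSRPK1 and -0.01 in oeSRPK1. Without oeSRPK1 replicate 1, 0 were called lower, without replicate 2, 4, without either NT library 7, and without shSRPK1 replicate 2, 25.

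Part of the collagens and fibrillar matrix was lower, and some proteases and their inhibitors were higher. Of 46 tested matrix genes, 17 were called lower, 2 higher and 27 not called, with a median of -0.37. COL8A1, a network collagen, had 126 and 158 CPM in the shSRPK1 libraries and 42.2 and 38.8 CPM in the oeSRPK1 libraries, with 43.1 and 49.9 CPM in NT. COL5A2, of fibrils, had 484 and 554 CPM in the shSRPK1 libraries and 241 and 240.1 CPM in the oeSRPK1 libraries. For both, shSRPK1 was above NT and oeSRPK1 near or below it, with falls by factors of 3.48 (log2 difference -1.80 ± 0.15 SE, edgeR adjusted p 0.00108) and 2.16. The basement membrane linkers NID1 and NID2 fell by 2.27 and 4.85, and the crosslinking enzyme LOXL1 by 2.65. LAMB3, a laminin chain of epithelial basement membranes, rose 5.56-fold and tenascin, TNC, 2.02-fold. Among 31 proteases and inhibitors, 7 were called higher, among them PLAU and the metalloprotease inhibitor TIMP3 (1.99-fold), and 4 were lower, among them MMP2 (1.97-fold). The adhesion genes CDH6 (319 and 366 CPM in the shSRPK1 libraries and 72.8 and 67.2 CPM in the oeSRPK1 libraries) and CDH11 fell by factors of 4.87 and 2.42, and ITGA8 by 3.23. COL8A1, CDH6, CDH11 and ITGA8 stayed called with any library left out. In the matrix list 1 gene was called lower without oeSRPK1 replicate 1, and without replicate 2, 10, against 27 without shSRPK1 replicate 2.

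**Figure D4:**
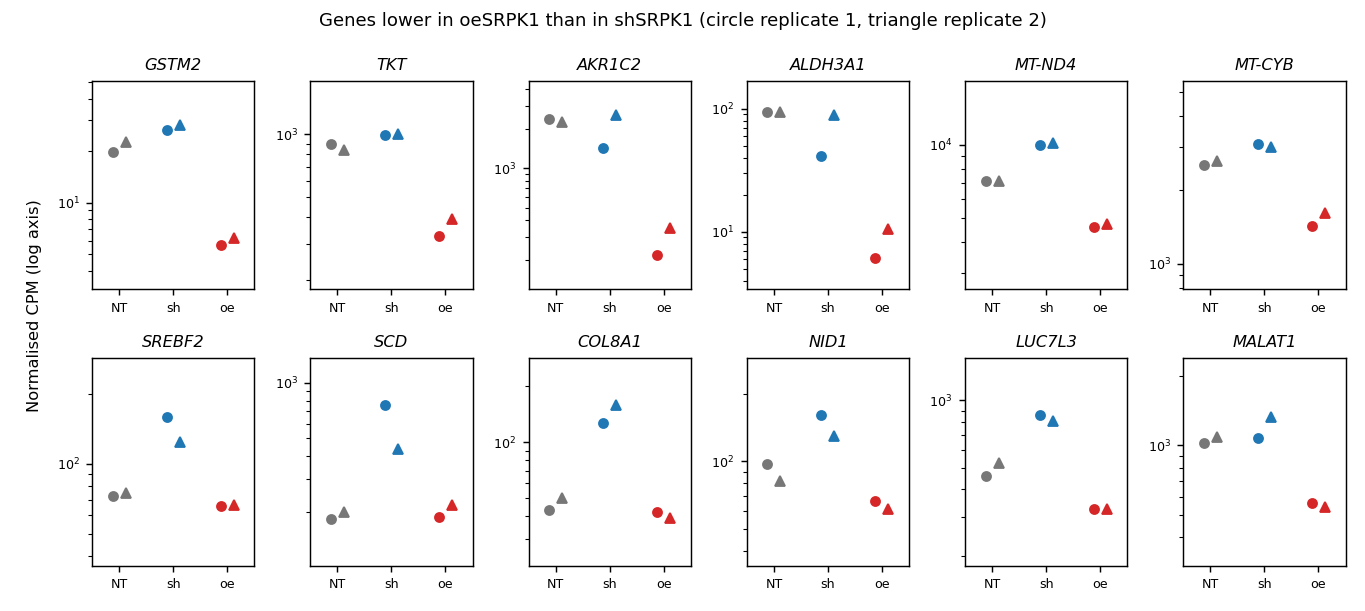
Normalised CPM (log axis) of 12 genes in NT (grey), shSRPK1 (blue) and oeSRPK1 (red), 1 point per library, circles for replicate 1 and triangles for replicate 2. In each gene both oeSRPK1 points lie below both shSRPK1 points. The genes were chosen after their values were seen.

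Among SR proteins and their relatives, the substrates and partners of SRPK1, 12 of 36 tested were called lower and 4 higher, with a median of -0.12. LUC7L3, a U1-associated SR-related protein, had 862 and 808 CPM in the shSRPK1 libraries and 326 and 326 CPM in the oeSRPK1 libraries, with 461 and 525 CPM in NT. SRRM1, a splicing coactivator, had 191 and 168 CPM in the shSRPK1 libraries and 92.2 and 88.1 CPM in the oeSRPK1 libraries. In both the oeSRPK1 libraries were below all 4 others and shSRPK1 was highest, with falls by factors of 2.56 (edgeR adjusted p 0.00153) and 1.98 (0.00333). LUC7L fell by 2.40, ARGLU1 by 1.87 and SRSF11 by 1.69. Of the classical SR proteins, SRSF1 fell by 1.42 and SRSF4 by 1.40, SRSF6 rose 1.52-fold, and SRSF2 (adjusted p 0.561), SRSF3 (0.55), SRSF5 (0.315) and SRSF7 (0.643) did not pass. LUC7L3 stayed called with any library left out, and it was the 1 member called lower without oeSRPK1 replicate 1. Without replicate 2, 5 were called lower, and without either NT library 7. In the core spliceosome 3 of 69 were called higher and 4 lower with a median of -0.03, and of hnRNPs and other regulators 3 of 43 were higher and 7 lower. Without shSRPK1 replicate 2, 7 and 17 of the core and 12 and 12 of the regulators were called higher and lower, and without shSRPK1 replicate 1, 10 and 8 of the core were, with 4 and 12 of the regulators. Without oeSRPK1 replicate 1 or replicate 2, 0 of either list were called in edgeR.

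Of 12 tested nuclear noncoding RNAs, 2 were called higher (MEG3 and NORAD) and 2 lower. MALAT1, which gathers in nuclear speckles beside SR proteins, had 1074 and 1330.1 CPM in the shSRPK1 libraries and 561 and 541 CPM in the oeSRPK1 libraries, with 1024 and 1091 CPM in NT. NEAT1, the backbone of paraspeckles, had 4135 and 6934 CPM in the shSRPK1 libraries and 2269 and 2441 CPM in the oeSRPK1 libraries, with 2416 and 3009.8 CPM in NT. MALAT1 fell by a factor of 2.18 (edgeR adjusted p 0.00353) and NEAT1 by 2.35 (0.0137), and without oeSRPK1 replicate 1 the adjusted p values were 0.0769 and 0.154. By annotation, 0 of 111 tested sense intronic genes were called higher and 11 lower (9.91%). Of 710 antisense genes 32 were higher (4.51%) and 90 lower (12.7%), against 1567 (12.7%) and 1387 (11.3%) of 12323 protein-coding genes. The shares called lower were thus near the 11.3% over all tested genes. Those called higher were under its 11.5% for sense intronic and antisense genes, whose median log2 differences were -0.50 and -0.25. Reads in no annotated gene were 9.81% or more in both shSRPK1 libraries and 8.603% or less in both oeSRPK1 libraries, and their part in these differences was not tested.

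Stress and growth programmes split by branch. The ATF4 response, which answers amino acid shortage, had 8 of 42 called higher and 1 lower, with a median of 0.51. PPP1R15A, a regulator of translation restart, had 143 and 266 CPM in the shSRPK1 libraries and 647 and 563 CPM in the oeSRPK1 libraries, and VLDLR, a lipoprotein receptor, had 22.0 and 18.8 CPM in the shSRPK1 libraries and 50.8 and 52.7 CPM in the oeSRPK1 libraries. They rose 2.96-fold and 2.53-fold, and VLDLR stayed called with any library left out. The factor ATF4 itself rose 1.85-fold, the stress sensor SESN2 4.66-fold and the stress hormone GDF15 3.14-fold. Their edgeR adjusted p values were 0.0336, 0.0481 and 0.0473, close to the threshold. The summed level of the list was 7548 and 15357 CPM in shSRPK1 and 18233 and 17449 CPM in oeSRPK1. With 14807 and 13879 CPM in NT, shSRPK1 replicate 1 stood lowest, and its partner was above NT. Chaperones of the endoplasmic reticulum and heat shock had 3 of 33 higher and 8 lower. CALR, a chaperone of that compartment, had 3349.8 and 2201 CPM in the shSRPK1 libraries and 1281 and 1276 CPM in the oeSRPK1 libraries, and fell by a factor of 2.17. Of 48 hypoxia and glycolysis genes 4 were higher and 6 lower, with VEGFA, the angiogenic growth factor, at 716 and 609.6 CPM in the shSRPK1 libraries and 1204 and 989 CPM in the oeSRPK1 libraries (1.66-fold, edgeR adjusted p 0.0227) and the vasodilator peptide ADM 2.57-fold lower. The adjusted p of VEGFA was 0.227 without oeSRPK1 replicate 1. ANGPT1, a vessel-stabilising ligand, fell by a factor of 6.01. DNA replication genes had 3 of 64 higher and 5 lower, mitotic genes 3 of 56 and 2, and ribosomal proteins 4 of 79 and 0, all under the background shares. These counts changed with either shSRPK1 library left out. Each such fit leaves 1 hairpin library and takes its spread from the other groups, so more calls need not mean a larger difference. Without shSRPK1 replicate 2, 43 replication, 19 mitotic, 30 hypoxia and 19 chaperone genes were called lower and 39 ATF4 response genes higher. Without shSRPK1 replicate 1, 17 mitotic genes, 16 hypoxia genes and 16 ribosomal proteins were called higher. With oeSRPK1 replicate 1 left out, 1 ATF4 response gene was called higher and 0 chaperones lower. Among 20 tested histones, 5 were called higher and 0 lower. Of 8 tested genes of zinc handling, 4 were called higher and 1 lower: the metallothionein MT1F rose 3.07-fold, the zinc exporter SLC30A1 2.54-fold, and the zinc sensor MTF1 1.88-fold, while the importer SLC39A10 fell by a factor of 2.06. Leaving out oeSRPK1 replicate 1, 0 genes of zinc handling and 0 histones were called higher, and without oeSRPK1 replicate 2, 2 and 2.

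**Figure D5:**
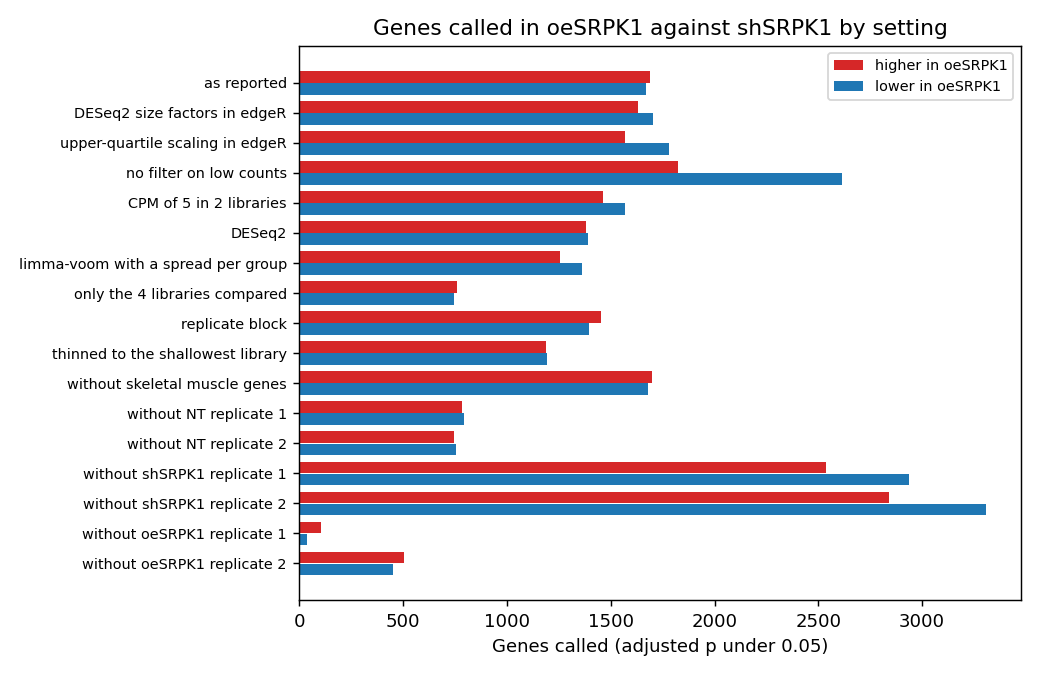
Number of genes called higher (red) or lower (blue) in oeSRPK1 against shSRPK1 (horizontal axis) under each setting. Leaving out oeSRPK1 replicate 1 gives the fewest calls (106 and 38) and leaving out shSRPK1 replicate 2 the most (2843 and 3309).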

How the data were processed

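RNA of 6 T98G libraries was counted per gene. The authors deposited raw counts, in separate files. The submitters' processing notes state that the tools were STAR 2.5.3 on the hg38 build, after FastQC and Trimmomatic. The program that counted, its annotation and its strand setting are not given in the sources used here. Of 60483 identifiers, 56753 had a symbol, from a gene name table or from GENCODE 29, which also gave coordinates. The 5 entries that name no gene (no feature, ambiguous, not unique and the like) stayed out of library sizes; reads in no gene were 8.13% to 11.1% of all.

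Counts were tested with edgeR 4.0.16 (R 4.3.3): filterByExpr (minimum count 10, total 15), TMM, a robust quasi-likelihood fit of all 6 libraries without covariates, the contrast oeSRPK1 minus shSRPK1, and Benjamini-Hochberg adjustment over 14732 genes at 0.05. Tested genes held 99.8% of gene reads. SE is the log2 difference divided by the square root of F, and intervals are 95%. Replicates are 2 per group, so p-values rest on few residual degrees of freedom. In oeSRPK1 replicate 2, 3 reads correspond to 0.771 CPM, and in replicate 1 to 0.132 CPM; these limits cover counting error only.

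The members and lists were chosen with earlier results of these data known. Named genes were SRPK1, SRPK2 and CLK1, the 12 largest rises and falls (called, groups apart, log2 CPM averaging 1 or more), up to 4 called genes of smallest adjusted p per list with at least 3 called, and further members for their role. Genes named outside that rule were chosen after their values were seen. No fold is given where a group held 3 reads or fewer in all. Same-numbered libraries did not deviate together (r between -0.0186 and 0.0235), so replicate numbers were not used as pairs. Motifs were searched in RefSeq GRCh38.p14 promoter windows. The test was tried on simulated counts with known changes. False calls exceeded the nominal share there, most where each gene kept its own estimated spread. The simulation gave all groups the same spread, whereas the shSRPK1 replicates lay further apart than the others. It therefore cannot give the share of false calls in this contrast. Alternatives were other scalings and filters, DESeq2 1.42.0, limma-voom (limma 3.58.1), 4 libraries only, the replicate block, thinning, removal of muscle genes and each library left out. Some genes are not reported here by name.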

Additional observations from a re-analysis of the deposited data

How the results depend on the processing

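The total of 1690 genes called higher and 1671 called lower changed most with the libraries fitted: 759 and 746 were called with only the 4 libraries compared, and between 106 and 2843 higher and between 38 and 3309 lower with 1 library left out. Without a filter on low counts 2615 genes were called lower. Other scalings, a stricter filter, DESeq2, limma-voom, thinning to the shallowest library and removal of muscle genes left both totals within 1.5 times. Removal of muscle genes took out only their own rows and does not test muscle RNA in other genes. The replicate block gave 1451 and 1395, and the replicate numbers do not pair the libraries. No gene turned direction between any of these settings and the reported calls. The log2 difference of SRPK1 was 0.50 with an adjusted p of 0.0920 with the 4 libraries only and 0.50 with 0.0609 under the replicate block, and it ranged from 0.33 to 0.63 with 1 library left out.

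Counts per list with 1 library left out ranged from 5 to 24 for cytokines, 2 to 16 for NF-kB genes, 4 to 26 for MAPK output, 1 to 6 for the EGF family, 4 to 11 for keratins and 0 to 11 for MHC class I, all called higher. Those called lower ranged from 4 to 43 for NRF2 targets, 0 to 13 for mitochondrially encoded genes, 0 to 25 for sterol genes, 1 to 27 for collagens and 1 to 15 for SR proteins. With the 4 libraries only, 3 EGF family and 4 MHC class I genes were called higher and 6 sterol genes and 7 SR proteins lower, and thinning left 11 cytokines. Leaving out oeSRPK1 replicate 1 leaves that group with the shallowest library (3891549 gene reads), which is assumed to vary like the other groups. Leaving out a shSRPK1 library makes the same assumption for shSRPK1, whose replicates lay furthest apart (median absolute log2 difference 0.272, against 0.162 in oeSRPK1 and 0.132 in NT). The larger number of calls then need not mean a larger difference. Of 170 named calls, most were lost without oeSRPK1 replicate 1, and fewer without oeSRPK1 replicate 2. Most of the 170 were named for a large change or a small adjusted p. They were kept more often than the reported calls as a whole, so they do not stand for those.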

Other observations

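Genes of survival and of TGF-beta signalling moved in both directions. Of 32 tested genes of apoptosis, 7 were called higher and 2 lower in oeSRPK1. The inhibitors of cell death BCL2L1 (1.63-fold), MCL1 (1.61-fold) and XIAP (2.02-fold) were higher, as was TNFRSF1B (5.01-fold), a TNF receptor, while BAX, which opens the mitochondrial membrane, was 1.51-fold lower and TNFRSF1A, the other TNF receptor, 1.85-fold lower. Without oeSRPK1 replicate 1, 0 of these genes were called higher and 0 lower. Of 31 tested genes of TGF-beta and BMP signalling, 6 were higher and 5 lower. The receptor TGFBR1 had 26.9 and 29.4 CPM in the shSRPK1 libraries and 77.7 and 63.8 CPM in the oeSRPK1 libraries, a rise of 2.54-fold, and LTBP1, which holds TGF-beta in the matrix, rose 4.64-fold. ID1, a transcription inhibitor induced by BMP, had 129 and 138 CPM in the shSRPK1 libraries and 46.4 and 61.5 CPM in the oeSRPK1 libraries and fell by a factor of 2.51, with ID2 and ID3 lower by 1.60 and 1.96. TGFBR1 and ID1 stayed called with any library left out, and each was the 1 gene of the list in its direction without oeSRPK1 replicate 1.

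Of 19 tested neuronal genes, 5 were called higher and 3 lower, and vesicle release genes moved both ways. SNAP25, a membrane fusion protein, had 16.4 and 17.2 CPM in the shSRPK1 libraries and 4.90 and 4.91 CPM in the oeSRPK1 libraries, and SYT11, a synaptotagmin, had 14.95 and 12.1 CPM in the shSRPK1 libraries and 50.8 and 48.9 CPM in the oeSRPK1 libraries. SNAP25 was 3.42-fold lower and SYT11 3.67-fold higher, and both stayed called with any library left out. Among 16 integrins, ITGB4 and ITGA6, the laminin-binding pair of epithelial attachment, were 2.22-fold and 2.18-fold higher (4 called higher in all), while ITGA8 and ITGA4 were lower. In all, 0 integrins were called higher without oeSRPK1 replicate 1.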
